A study of Mus musculus with 11 samples.

Results

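Hace1, Ide, Evc2, Gm47283, Gm47423 and B230217C12Rik are 6 of the 25938 genes in the count table, grouped because their level was seen to jump between single brain libraries without regard to dosing group. They were picked on their summed level in all nuclei, so p-values on those levels are given below as descriptions only. The question put to them was whether a jump has the same ratio in every cell class, as a difference in inherited copy number or sequence between animals would give. Nuclear RNA was measured by droplet single-nucleus sequencing in 11 mouse brain libraries, in which each RNA molecule is counted once by its molecular identifier (UMI). All mice were labelled homozygous for a human transferrin receptor knock-in, on a strain given as C57BL/6J in the deposited metadata, and received 4 intravenous doses, with tissue taken 72 h after the last. ATV:BACE1 at 57 mg/kg, the control vehicle with no oligonucleotide, had 3 libraries. nonTV:Malat1 and OTV:Malat1, both at 60 mg/kg, had 3 libraries each, and the free Malat1 ASO (antisense oligonucleotide) at 2.5 mg/kg had 2. Mice of replicate 1 were females aged 2.33 months, those of replicates 4 and 5 males aged 2.57 and 2.33 months, and the deposited batch followed the same numbers, so number and batch cannot be told apart, while sex sets replicate 1 against 4 and 5 and age sets replicate 4 against 1 and 5. No 2 libraries share dosing group, sex and age, so by the labels none share a mouse.

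A gene present in more or fewer copies in an animal is carried so in all of its cells, and its transcript then tends to scale alike wherever the gene is active. Hace1 encodes a HECT-type ubiquitin ligase that acts on active Rac1, Ide the insulin-degrading enzyme, a zinc metalloprotease that also cleaves amyloid beta, and Evc2 a membrane protein at the base of the primary cilium that works with Evc in Hedgehog signalling. Ide and Fgfbp3 are known from earlier work to vary in copy number among C57BL/6J mice. In the annotation used here they are not adjacent, and Btaf1, Cpeb3, A330032B11Rik and March5 lie between them. Gm47283 and B230217C12Rik are annotated as protein-coding genes, and Gm47423 is an antisense RNA inside Ntrk2, the gene of the BDNF receptor.

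The libraries held 33235994 to 43972886 UMIs each, over 7546 to 13840 nuclei. Malat1, the RNA targeted by the oligonucleotide, stood at 39941 to 48637 CPM (UMI counts scaled to library size) in the OTV:Malat1 libraries and at 71576 to 82851 in the libraries of the other groups. The 8 classes used had at least 20 nuclei in every library, from 4873 to 11199 neurons down to 40 to 126 pericytes. Neuron markers were present in all other classes: the 5 markers stood at 8.29% to 45.9% of their neuronal level in astrocytes and at 9.73% to 56.5% in oligodendrocytes, and the part of such RNA in the class values below was not tested. Nuclei called Glia in the deposited classes were highest in Ttr and Folr1, genes of the choroid plexus. Nuclei called Pericytes also held RNA of the endothelial genes Flt1 and Cldn5, at 4281 and 2178 CPM, against 5558 and 2390 CPM in vascular endothelium. Barcode sequences found in more than 1 library numbered 1495, at most 0.551% of the smaller library of any pair.

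Of the 6 genes, which were picked on these same levels, 4 had a step, taken here as a gap of at least 0.5 in log2 CPM. For each gene the 11 values of log2 CPM were put in order and the largest gap between neighbours was taken. Over the 14658 genes with a mean of at least 100 UMIs per library this gap had a median of 0.14 and a 95th percentile of 0.44. In 490 of these genes the gap was at least 0.5. It was 2.28 for Gm47283 (rank 8), 1.60 for Evc2 (rank 12), 1.03 for Ide (rank 17) and 0.78 for Hace1 (rank 57), and the 6 widest gaps of all belonged to the sex genes Xist, Eif2s3y, Ddx3y, Uty, Kdm5d and Tsix. Gm47423 had a gap of 0.20 (rank 4386) and B230217C12Rik one of 0.28 (rank 2086), so these 2 genes varied by degrees and had no step.

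**Figure D1:**
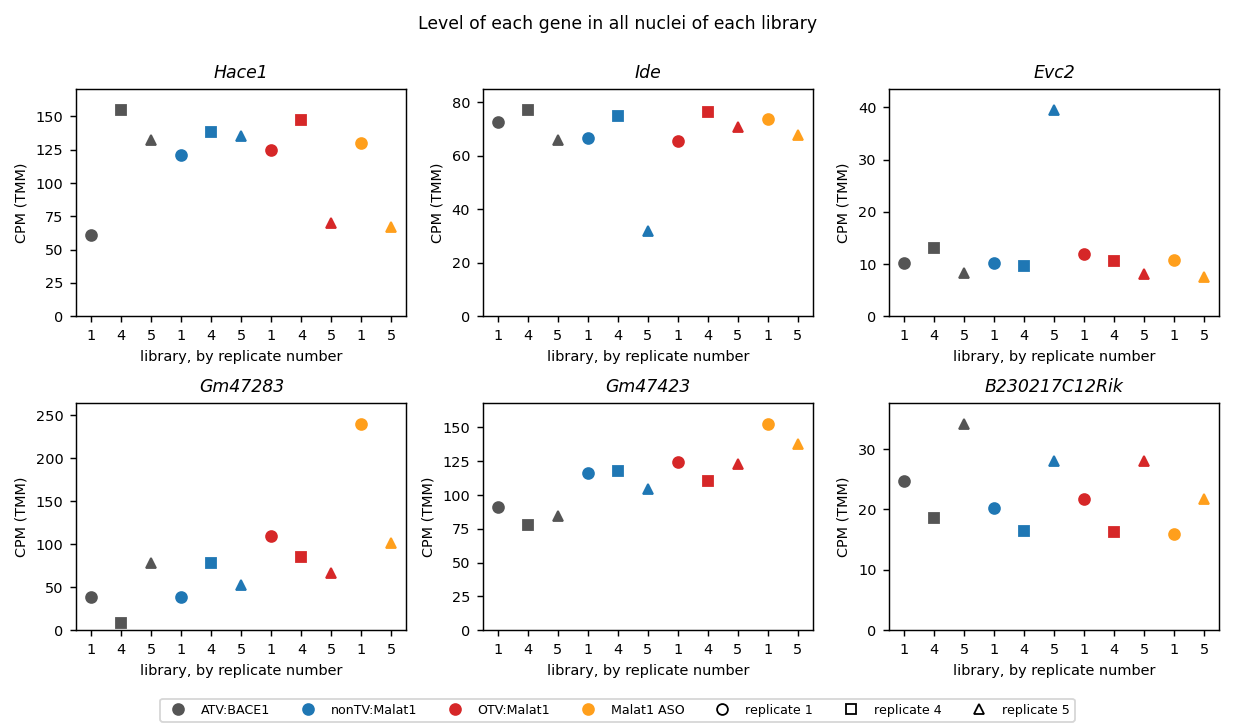
Level of each gene in all nuclei of each of the 11 libraries, in CPM with TMM scaling; colour is the dosing group, marker shape and axis label the replicate number, and each point is 1 library. Hace1 has 3 low libraries, Ide 1 low and Evc2 1 high library, Gm47283 runs from 7.91 to 240 CPM, and Gm47423 and B230217C12Rik spread without a wide gap.

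None of the 6 was called among the 4 dosing groups by edgeR's quasi-likelihood F test after adjustment over 21409 genes. This fit had no replicate block and called 0 genes (background 0%, 114 genes at an unadjusted p under 0.05). The targeted Malat1 was thus not called either, so the lack of a call tells little about the 6. DESeq2's likelihood ratio test called 2 genes, Gm47423 among them. By replicate number 1 of the 6 was called, B230217C12Rik, against a background of 47% of all genes. Because the 6 genes were chosen on these same libraries, nothing is read from these counts. The difference between classes did not enter the choice and was tested for dosing group and replicate number; as the steps sit in single libraries, these tests do not bear on whether a step has the same ratio in each class. With limma on log2 CPM of astrocytes minus log2 CPM of neurons from the same library, 0 of 6 were called for dosing group (background 0%) and 0 of 6 for replicate number (background 0.057%). With oligodendrocytes minus neurons, 0 of 5 were called for dosing group (background 0.00809%) and 0 of 5 for replicate number (background 0.0324%), Evc2 having too few UMIs there. At an unadjusted p under 0.05, 498, 2203, 435 and 1886 genes respectively passed these 4 tests, and the lowest p among the 6 was 0.00462, for Gm47423 in oligodendrocytes by dosing group (adjusted p = 1.00, limma).

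Taken from the highest to the lowest library in all nuclei, the ratio in a class held the neuronal ratio within its 95% counting interval in 22 of 24 gene and class pairs with enough UMIs. The 19 pairs of the 4 stepped genes all did, and the 2 exceptions were Gm47423 in astrocytes and B230217C12Rik in oligodendrocytes. Many of these intervals are wide, and they cover counting error only. A closer description set 2 shapes against each other over 11 libraries and 8 classes: a step of equal ratio in every class and a step of equal added CPM in every class. Left-over variation is given as Poisson deviance per degree of freedom, which is near 1 when counting error alone is left; its median over 14644 genes was 1.22 for the equal ratio. Hace1 had 1.07 with an equal ratio and 4.48 with an equal difference, Gm47283 1.25 and 3.35, and Ide 0.99 and 1.28. Evc2 was the reverse, with 1.71 for the equal ratio and 1.51 for the equal difference. A step down larger than the usual level of a class cannot be fitted by an equal difference, since no level can be negative. In ATV:BACE1 replicate 1 Hace1 differed by -73.1 CPM from the median of the other 10 libraries in neurons. That median was only 60.7 CPM in astrocytes. The 4.48 of Hace1 was thus partly fixed beforehand and does not by itself favour the equal ratio.

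**Figure D2:**
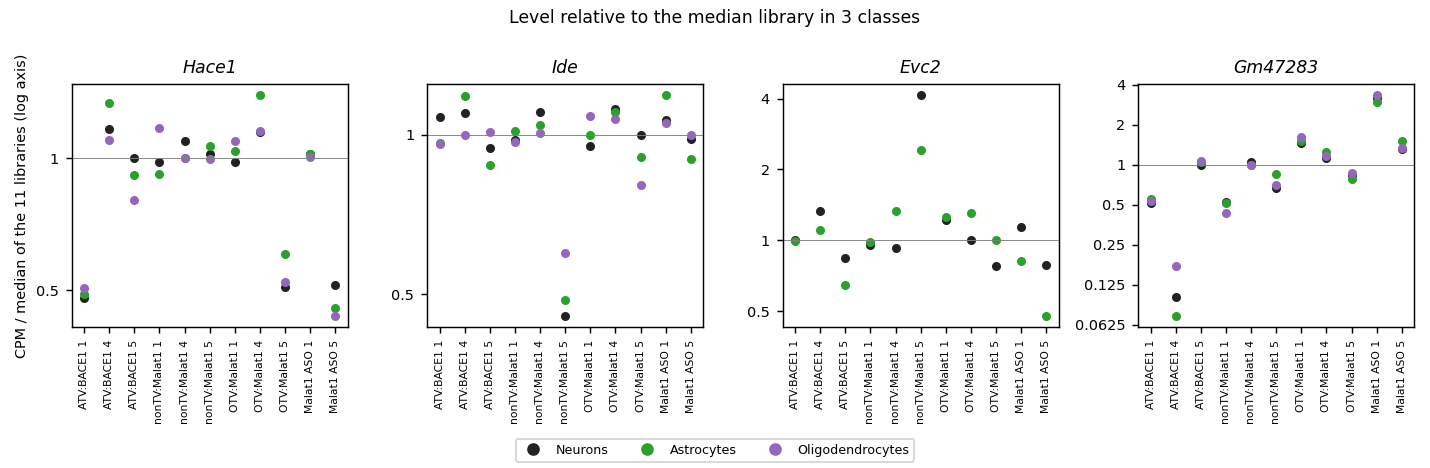
CPM of the 4 stepped genes in neurons, astrocytes and oligodendrocytes, divided by the median of the 11 libraries in that class (log axis), 1 point per library; Evc2 in oligodendrocytes is left out for its 79 UMIs. The 3 low libraries of Hace1 are low in each class, the low library of Ide is less low in oligodendrocytes (0.595 of the median of the others) than in neurons (0.440), Gm47283 spans 31.5-fold, 41.1-fold and 19.4-fold from highest to lowest library, and Evc2 in nonTV:Malat1 replicate 5 rises further above the median in neurons than in astrocytes.

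Hace1 lies on chromosome 10, at chr10:45577829-45712345 on the plus strand of GRCm38. In all nuclei it measured 61.3, 155 and 132 CPM in ATV:BACE1 replicates 1, 4 and 5, and 121, 138 and 135 CPM in nonTV:Malat1. It measured 125, 147 and 70.3 CPM in OTV:Malat1 and 130 and 67.1 CPM in replicates 1 and 5 of Malat1 ASO. The low libraries were 3, 1 female and 2 male, each from another dosing group, and the lowest of the other 8 stood at 121 CPM.

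Set against the median of the other 10 libraries, ATV:BACE1 replicate 1 was at 0.475 in neurons (95% counting interval 0.456 to 0.494), 0.483 in astrocytes (0.377 to 0.611) and 0.503 in oligodendrocytes (0.403 to 0.619). OTV:Malat1 replicate 5 was at 0.504 in neurons, 0.598 in astrocytes and 0.521 in oligodendrocytes. Malat1 ASO replicate 5 was at 0.509, 0.450 and 0.434. In the scarcer classes the ratios rested on 2 to 27 UMIs, with wide intervals. In the same order of libraries they were 0.641, 0.579 and 0.814 in Glia and 0.612, 0.852 and 0.389 in leptomeningeal cells. They were 0.261, 0.304 and 0.246 in microglia, 0.460, 0.708 and 0.534 in vascular endothelium, and 0.461, 0.346 and 0.489 in pericytes. The median of the other 10 was 139 CPM in neurons, 91.8 in oligodendrocytes and 60.7 in astrocytes. Over all libraries Hace1 stood at 44.9% of its neuronal level in astrocytes and at 45.8% in Glia, inside the range of the 5 neuron markers there (8.29% to 45.9% and 20.8% to 51.8%), and the part of neuronal RNA in its step in these classes was not tested. In oligodendrocytes it stood at 65.5%, above the markers' highest of 56.5%. Ide, at 110% in astrocytes and 70.4% in oligodendrocytes, and Gm47283, at 70.7% and 87.4%, were above the markers in both. The SD over libraries of the astrocyte to neuron difference in log2 CPM was 0.15 for Hace1, below the median of 0.25 for all genes, although Hace1 itself had an SD of 0.51 in neurons. It was 0.16 in oligodendrocytes, also under the median of 0.25 there. It was above the median of all genes in Glia (0.334 against 0.327), leptomeningeal cells (0.41 against 0.35) and pericytes (0.45 against 0.36), which have fewer UMIs. The medians include genes with fewer UMIs than Hace1 had in astrocytes (1178) and oligodendrocytes (1317). They are not matched for depth, so a value below them does not by itself show an equal ratio. In pericytes ATV:BACE1 replicate 4 was only 1.146 times ATV:BACE1 replicate 1 (0.246 to 4.51), from 4 and 7 UMIs.

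The step was also present within the neurons. In 5 deposited clusters with at least 1000 neurons and 100 UMIs of the gene, whose usual level ranged from 91.9 to 167 CPM, the ratio was 0.319 to 0.515 in ATV:BACE1 replicate 1, 0.453 to 0.582 in OTV:Malat1 replicate 5 and 0.488 to 0.551 in Malat1 ASO replicate 5. In 2 smaller clusters the ratios of these libraries were less even, some nearer to no step and some not. They were 0.798, 0.372 and 1.04 in cluster 6 (674 neurons, 157 UMIs) and 0.734, 0.682 and 0.522 in cluster 7 (458 neurons, 122 UMIs). Of neurons thinned to 1000 UMIs, 6.31%, 7.44% and 6.96% held a Hace1 UMI in these 3 libraries, against 11.1% to 14.4% in the other 8, with 1.35% to 5.98% of neurons per library left out as shallower. Without thinning the shares were 25.0%, 19.9% and 25.8%, against 39.0% to 52.4%. Neurons supply 43420 of the 46734 Hace1 UMIs on which these libraries were named low, so the shares restate the level in another form.

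The 3 genes within 1 Mb of Hace1 with a mean of at least 100 UMIs did not share its step. Lin28b, Bves and Prep stood at 1.00 to 1.20 of their median in the 3 low libraries. These genes all lie at lower coordinates than Hace1, so their values do not cover its other side. The gene whose level over the 11 libraries was most like that of Hace1 was Recql5, a DNA helicase gene, with r = 0.94, yet its own range was only 1.27-fold against 2.53-fold for Hace1. Such likeness was picked as the highest among 14658 genes and is a description.

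**Figure D3:**
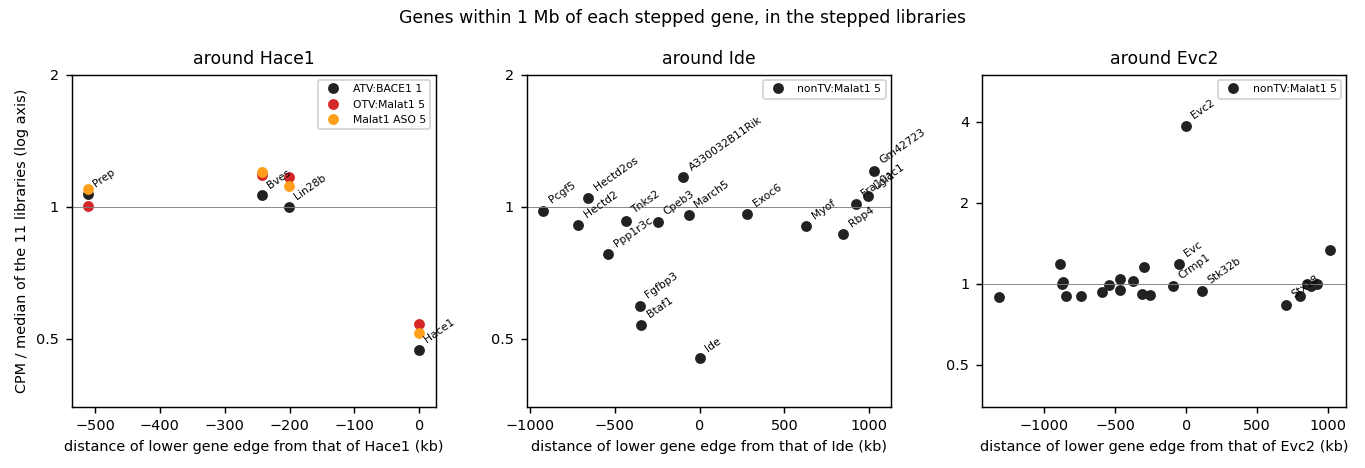
CPM of genes within 1 Mb of Hace1, Ide and Evc2, divided by the median of the 11 libraries (log axis), in the libraries where the gene steps; the horizontal axis is the distance between lower gene edges in kb, and each point is 1 gene in 1 library. Lin28b, Bves and Prep stay at 1.00 or above beside Hace1, Btaf1 and Fgfbp3 are low together with Ide while the genes between them are not, and beside Evc2 the highest ratio is 1.33, for Slc2a9, against 3.85 for Evc2 itself.

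Ide lies at chr19:37268743-37337852 on the minus strand. It measured 72.7, 77.3 and 66.0 CPM in ATV:BACE1, 66.7, 75.1 and 32.0 CPM in nonTV:Malat1, 65.6, 76.5 and 71.0 CPM in OTV:Malat1, and 73.8 and 67.7 CPM in Malat1 ASO. A single library, nonTV:Malat1 replicate 5, was low, and the other 10 lay within 65.6 to 77.3 CPM. Relative to their median it stood at 0.440 in neurons (0.413 to 0.468), 0.484 in astrocytes (0.360 to 0.636) and 0.405 in Glia (0.202 to 0.725).

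Oligodendrocytes showed a smaller drop, to 0.595 (0.415 to 0.828, from 35 UMIs), whose interval includes the neuronal ratio. The log2 ratio of ATV:BACE1 replicate 4, the highest library in all nuclei, to this one was 0.73 in oligodendrocytes. With nuclei thinned to 1000 UMIs, and the highest and lowest library named anew, it was -0.13. The step in that class was thus not seen after thinning, which left fewer UMIs, and no interval was taken for that value. Vascular endothelium stood at 1.45 on 7 UMIs (0.581 to 2.98), too few to place. In the 5 neuron clusters the ratio was 0.344 to 0.536, and in the smaller cluster 6 it was 0.933, on 108 UMIs over all libraries. A UMI of Ide was found in 3.40% of thinned neurons of this library, against 6.07% to 7.41% in the others, and in 12.98% against 19.9% to 33.7% unthinned.

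In all nuclei Btaf1 and Fgfbp3, at lower coordinates, were also lowest in this library. Fgfbp3 is described here in all nuclei only. Btaf1 (chr19:36926079-37012752), which encodes an ATPase that acts on the TATA-binding protein, measured 104 CPM there and 157 to 253 CPM in the others. Its ratio to the median of 11 was 0.529 in neurons (0.511 to 0.547), 0.644 in astrocytes (0.540 to 0.762) and 0.563 in oligodendrocytes (0.469 to 0.670). Fgfbp3 (chr19:36917550-36919615), an FGF-binding protein gene, measured 9.77 CPM there, but the 3 libraries of replicate 4 were close by at 11.3 to 11.4 CPM and the highest reached 23.6.

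The genes that lie between Btaf1 and Ide were not low. Cpeb3 stood at 0.92 of its median, A330032B11Rik at 1.17 and March5 at 0.96, and Exoc6 on the other side of Ide at 0.96. Over all 14658 genes, nonTV:Malat1 replicate 5 was separated from every other library by at least 0.5 on the log2 scale in only 4: Ide, Htatip2 and Btaf1 below and Evc2 above. Other libraries had 0 to 41 such genes above and 0 to 84 below, so this library does not stand apart in general.

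Evc2 lies at chr5:37338499-37425055 on the plus strand. It measured 10.2, 13.03 and 8.27 CPM in ATV:BACE1, 10.3, 9.60 and 39.5 CPM in nonTV:Malat1, 11.9, 10.6 and 8.11 CPM in OTV:Malat1, and 10.7 and 7.46 CPM in Malat1 ASO. The high library was again nonTV:Malat1 replicate 5, the one in which Ide was low, and the other 10 ranged from 7.46 to 13.03 CPM. Without it, the 3 remaining libraries of replicate 5 were the 3 lowest, and edgeR's adjusted p for replicate number went from 0.709 to 0.00899. With all libraries, 47% of all genes were called for replicate number. Evc2 was picked on these libraries, so these values describe and do not test.

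The step of Evc2 was nearer to an equal added CPM in each class than to an equal ratio. CPM is a share of the UMIs of a class, so this is not an equal number of RNA molecules per nucleus. Against the median of the other 10 libraries, neurons of nonTV:Malat1 replicate 5 had 39.1 against 9.19 CPM, a difference of 29.9 (27.7 to 32.1) and a ratio of 4.25 (4.02 to 4.50). Astrocytes had 49.8 against 20.6 CPM, a difference of 29.2 (18.0 to 42.7) and a ratio of 2.42 (1.88 to 3.07). Oligodendrocytes had 24.9 against 3.46 CPM, a difference of 21.4 (13.2 to 32.3) and a ratio of 7.20 (4.83 to 10.3), from 29 UMIs.

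In 3 scarcer classes the neurons' difference lay within wide intervals. It was 45.2 CPM in Glia (22.2 to 75.9), 36.4 in pericytes (10.1 to 80.0) and 35.8 in leptomeningeal cells (1.22 to 89.3), where the usual level was highest, at 35.8 CPM. The ratios there were 3.15 (2.06 to 4.62), 4.00 (1.83 to 7.60) and 2.00 (1.03 to 3.50), so in Glia and pericytes the intervals hold both the neurons' difference and the neurons' ratio. Vascular endothelium and microglia had 1 UMI each in this library, at 9.59 and 17.2 CPM, inside the range of the other 10 (0 to 25.4 and 0 to 28.4 CPM), so no rise was seen there, on 9 and 5 UMIs in all libraries. Measured instead from the lowest library, Malat1 ASO replicate 5, the ratio was 5.31 in neurons and 5.08 in astrocytes, so in astrocytes the shape depends on the library taken as reference.

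Neuron clusters 0, 1, 2 and 5 held 2472, 691, 673 and 312 UMIs of Evc2, against 477 in astrocytes. The usual level was 12.7 CPM in cluster 0, which was rich in the excitatory marker Slc17a7, and 5.77 and 5.62 CPM in clusters 1 and 2, in which the inhibitory marker Gad1 was higher. Cluster 1 was mixed, as another excitatory marker, Slc17a6, stood at 64.3 CPM there, against 18.5 in cluster 0 and 10.7 in cluster 2. In nonTV:Malat1 replicate 5 Evc2 in clusters 0, 1 and 2 stood at 41.4, 36.9 and 43.3 CPM. The increase was 28.7, 31.1 and 37.7 CPM, and the levels were 3.26, 6.39 and 7.70 times the usual. Cluster 5 rose from 13.2 to 42.1 CPM, by 28.9 CPM.

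Cluster 1 therefore had 0.890 of the level of cluster 0 in this library, against 0.319 to 0.646 in the other 10, and cluster 2 had 1.05 of it, against 0.314 to 0.737. In both clusters this library lay outside the range of the others. Ide, which is low in the same library, lay outside the range of the others in 2 of 3 clusters, but by less (1.27 against 1.04 to 1.21 in cluster 1 and 1.25 against 0.907 to 1.24 in cluster 5). Genes with no step in this library could lie outside too: in cluster 1 Hace1 had 0.521 against 0.523 to 0.606, and B230217C12Rik 0.933 against 0.997 to 1.37. Over 5 neuron clusters the deviance per degree of freedom of Evc2 was 4.30 for the equal ratio and 2.42 for the equal difference, while for Hace1 it was 1.16 and 6.99.

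**Figure D4:**
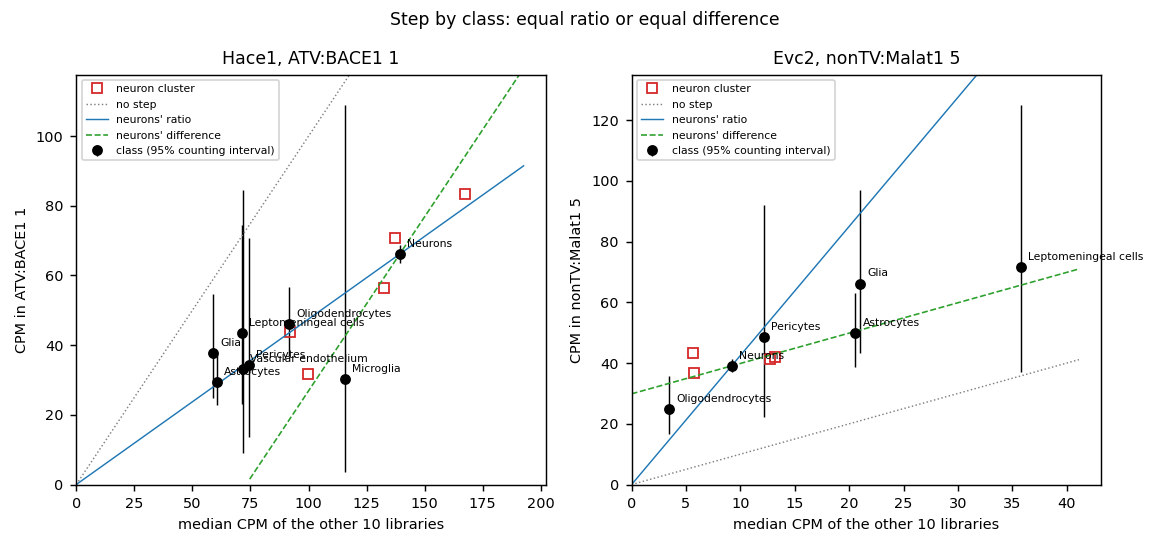
Level in the stepped library against the median of the other 10 libraries, in CPM, for Hace1 in ATV:BACE1 replicate 1 (left) and Evc2 in nonTV:Malat1 replicate 5 (right). Circles are classes with TMM scaling and 95% counting intervals, and squares are neuron clusters scaled by total counts. Lines show no step, the neurons' ratio and the neurons' difference. Hace1 follows the line of the ratio of 0.475, and Evc2 lies near the line of the difference of 29.9 CPM.

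In nonTV:Malat1 replicate 5 the 5 neuron markers stood at 10.4% to 67.6% of their neuronal level in astrocytes (median 25.6%) and at 10.7% to 68.8% in oligodendrocytes (median 27.5%). Evc2 stood there at 127% of its neuronal level in astrocytes, at 169% in Glia and at 63.8% in oligodendrocytes, the last of these within the range of the markers, whose part in the Evc2 step was not tested. Of thinned neurons 3.83% held a UMI of Evc2, against 0.707% to 1.12% in the other libraries (15.2% against 2.37% to 5.84% unthinned).

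The partner gene Evc, next to Evc2 on the other strand, measured 3.52 CPM in this library and 2.77 to 3.45 CPM in the others, a ratio of 1.18 to the median. Evc and Slc2a9, at 1.33, were thus also highest in this library, though by far less than Evc2. Crmp1 was at 0.98 and Stk32b at 0.94 of their median. Stx18, a syntaxin gene within 1 Mb, was at its lowest, with 59.1 CPM against 68.4 to 76.5. It was also the gene most like Ide over the 11 libraries, with r = 0.90.

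Gm47283 is annotated at chrY:90784738-90816464, at the end of Y that pairs with X, and was present in female libraries too. It measured 38.9, 7.91 and 77.7 CPM in ATV:BACE1, 38.7, 77.7 and 52.0 CPM in nonTV:Malat1, 110, 85.3 and 66.9 CPM in OTV:Malat1, and 240 and 101 CPM in Malat1 ASO. The highest library was female and the lowest male, 30.3-fold apart, and the 4 female libraries spanned 38.7 to 240 CPM. The lowest library was set apart by a gap up to 38.7 CPM and the highest by a gap down to 110 CPM, and the 9 between them were spread by degrees.

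The ratio of the highest to the lowest library was 31.5 in neurons (27.6 to 36.0), 41.1 in astrocytes (18.7 to 113), 19.4 in oligodendrocytes (11.4 to 35.7) and 24.6 in Glia (9.40 to 91.4). In pericytes and microglia the lowest library had 0 UMIs, against 35 and 58 in the highest. Any 2 libraries stood in the same order as in neurons in 92.7% of 55 pairs in astrocytes, 96.4% in oligodendrocytes, 92.7% in leptomeningeal cells, 90.9% in pericytes, 89.1% in Glia and 72.7% in microglia. In 5 neuron clusters Malat1 ASO replicate 1 was at 3.02 to 3.63 times the median of the others and ATV:BACE1 replicate 4 at 0.0760 to 0.101. A UMI was found in 0.705% of thinned neurons of the lowest library and in 21.1% of the highest (2.92% and 65.6% unthinned).

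Other genes at the paired ends of X and Y were compared with it, of which only Gm21887 was found to share transcript sequence. Gm21887, at chrX:170009659-170019281, ran from 0.372 CPM in ATV:BACE1 replicate 4 to 17.5 in Malat1 ASO replicate 1, with r = 0.96 over the 11 libraries. Gm21860, at chrY:90754513-90754821, ran from 0.465 to 6.72 CPM with r = 0.84, its highest library being OTV:Malat1 replicate 1. Mid1, a ubiquitin ligase gene that crosses into the paired end of X, was also highest in Malat1 ASO replicate 1, at 59.2 CPM, but stood at 26.7 in ATV:BACE1 replicate 4, above 3 other libraries.

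Reads of Gm47283 and Gm21887 cannot all be told apart. Of the 1366 different 90-base windows in GENCODE M21 transcripts of Gm47283, 442 (32.4%) occur exactly in transcripts of Gm21887, while no window of the other 5 genes occurs in a transcript of another gene. The longest identical coding run is 390 bases. Its first 60 are printed, since they stand on both chromosomes (GRCm38, plus strand, chrY:90785590-90785649 and chrX:170010674-170010733).
Gm47283 and Gm21887: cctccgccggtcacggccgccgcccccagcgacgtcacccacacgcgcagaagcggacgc
How counts were divided between such copies is not given in the sources used here, so the level of either gene alone is uncertain.

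**Figure D5:**
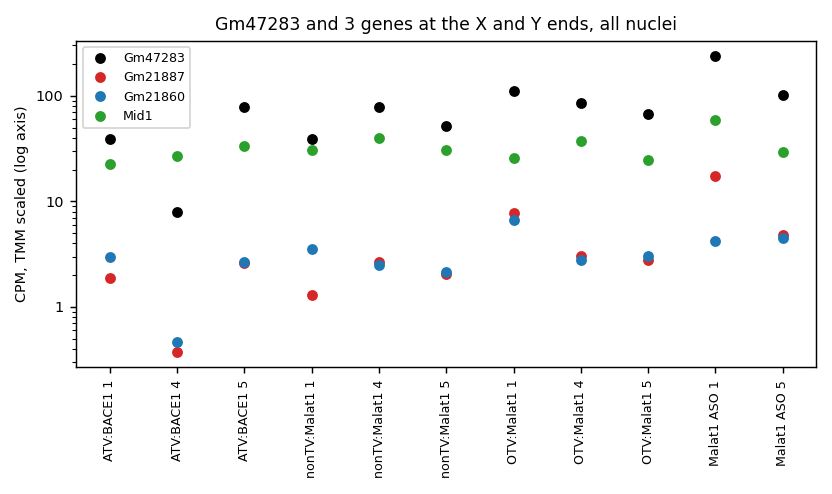
Level of Gm47283, Gm21887, Gm21860 and Mid1 in all nuclei of the 11 libraries, in CPM on a log axis, 1 point per library. Gm47283, Gm21887 and Gm21860 are all lowest in ATV:BACE1 replicate 4, and Gm47283, Gm21887 and Mid1 are highest in Malat1 ASO replicate 1.

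Gm47423 lies at chr13:58824218-58826994 on the minus strand, within Ntrk2 on the plus strand, and reads of both genes can only be told apart if counting used strand, which is not stated. It measured 91.1, 77.7 and 84.4 CPM in ATV:BACE1, 116, 118 and 104 CPM in nonTV:Malat1, 124, 110 and 123 CPM in OTV:Malat1, and 153 and 138 CPM in Malat1 ASO. The 3 ATV:BACE1 libraries were the 3 lowest and the 2 Malat1 ASO libraries the 2 highest. The gene was picked on these levels, so nothing is read from this order. Ntrk2 itself did not have this order: its highest CPM was 677, in Malat1 ASO replicate 1, but Malat1 ASO replicate 5 had 478, between the ATV:BACE1 values of 468, 599 and 456.

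For Malat1 ASO against ATV:BACE1 the difference in log2 CPM was 0.78 (SE 0.10, edgeR adjusted p = 0.210), and 0.76 with a replicate block (adjusted p = 0.00948). For the F test over the 4 groups the adjusted p was 1.00, 0.0728 with the block and 3.27e-05 with DESeq2. The blocked contrast called 4 of 21409 genes (0.0187%), and 2 of the 6 genes described here were among them. As the gene was singled out on these libraries, the values describe and do not test.

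By class, the level in astrocytes was 1.68 times that in neurons at the median library and in oligodendrocytes 0.0933 times. Malat1 ASO replicate 1 was 2.08 times ATV:BACE1 replicate 4 in neurons (1.97 to 2.19) and 1.59 times in astrocytes (1.37 to 1.84). The log2 difference between these ratios was -0.39, with a counting interval of -0.61 to -0.17. That interval covers counting error only. The SD over libraries of the astrocyte to neuron difference was 0.27 for this gene, a value that includes these 2 libraries. It was 0.25 at the median of all genes, many with fewer astrocyte UMIs than the 4283 of Gm47423, so that median is not matched for depth. Whether the difference between the ratios exceeds the spread between libraries was not tested. The deviance per degree of freedom of Gm47423 for an equal ratio, 3.23, was the highest of the 6, against 1.22 at the median of all genes. For an equal difference it was 11.1. Among the 5 genes most like it was Nr4a3, an activity-induced nuclear receptor gene, with r = 0.89 and 8.31 to 35.4 CPM, and the others were Ctps, Rel, Impg2 and Arhgap1.

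B230217C12Rik lies at chr11:97840780-97844099 on the plus strand. It measured 24.8, 18.6 and 34.2 CPM in ATV:BACE1, 20.2, 16.5 and 28.0 CPM in nonTV:Malat1, 21.7, 16.3 and 28.1 CPM in OTV:Malat1, and 15.9 and 21.7 CPM in Malat1 ASO. In every group the library of replicate 5 was the highest, and where replicate 4 was present it was the lowest. edgeR's adjusted p for replicate number was 3.72e-05. As the gene was picked on these libraries, this value and the other adjusted p-values given here describe and do not test. Malat1 ASO minus ATV:BACE1 was -0.46 without the block (adjusted p = 1.00) and -0.63 with it (SE 0.07, adjusted p = 0.0159).

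The ratio of ATV:BACE1 replicate 5 to Malat1 ASO replicate 1 was 2.14 in neurons (1.93 to 2.39), 1.63 in astrocytes (0.898 to 2.93) and 1.01 in oligodendrocytes (0.568 to 1.76). The oligodendrocyte ratio differed from the neuronal one by -1.07 on the log2 scale (-1.84 to -0.30, counting error only), on 22 and 37 UMIs, and the SD over libraries of that difference was 0.30. The genes most like it over the libraries, AC166172.1 (r = 0.97) and Dnajb9 (r = 0.96), which encodes a chaperone of the endoplasmic reticulum, ranged 1.99-fold and 1.54-fold.

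Of 27 HECT ubiquitin ligases, 0 were called for dosing group and 16 for replicate number, with a median SD over libraries of 0.13 in log2 CPM against 0.16 for all genes, and Hace1 was the only 1 above the 95th percentile of 0.43. Of 17 tested proteases that are related to Ide or cut amyloid beta or insulin, 5 were called for replicate number (Mmel1, Ece1, Ece2, Nln and Htra1). The median SD was 0.16 over the 13 with a mean of at least 100 UMIs per library, Mmel1 not among them. Of 18 genes of the Evc complex and Hedgehog signalling at the cilium, 11 were called for replicate number, among them Ptch1, the Hedgehog receptor, Smo, the transducer it holds in check, and the transcription factor Gli2. The median SD was 0.18 over the 15 of them with a mean of at least 100 UMIs per library, with Evc2 and Gli3 above the 95th percentile. Gas1, a Hedgehog co-receptor gene, had a largest gap of 0.56. Of 7 tested genes known to differ among C57BL/6 substrains or breeding lots, Ide among them, 0 were called for dosing group and 5 for replicate number (Nnt, Fgfbp3, Crb1, Cyfip2 and Gabra2), with a median SD of 0.27. For these lists the background for replicate number was again 47%.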

How the data were processed

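The deposited matrix holds counts of UMIs per gene and nucleus, and per the submitters' processing notes Cell Ranger 5.0.0, Seurat 4 and mm10 were used, with no roles stated. The authors deposited with it a metadata table with each nucleus's class, cluster and doublet call (10.4% were called doublets and were kept), the percent of mitochondrial counts and the class prediction score, a fraction. No source used here states the annotation release, the strand setting or the handling of multi-mapped reads. The labels and the deposited metadata name the brain region differently.

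Counts were summed per library, class and neuron cluster. Sums per library and class were scaled to CPM by TMM, and sums per neuron cluster by total counts without TMM. The 110304 nuclei had a median of 2859 UMIs (lowest 499). All-gene tests used edgeR 4.0.16 (quasi-likelihood), limma 3.58.1 (class minus neurons) and, as an alternative, DESeq2 1.42.0, in R 4.3.3, with Benjamini-Hochberg adjustment over all genes tested and a threshold of 0.05. P-values measure only the spread between these libraries. Exact Poisson and binomial intervals came from scipy 1.17.1 and numpy 2.4.6 under Python 3.11.15, with pandas 2.3.3 for tables and matplotlib 3.10.9 for figures; they cover counting error only and treat a median as fixed. Scripts were tested on simulated data. Positions are GRCm38 (mm10) from GENCODE M21, in which 25323 of 25938 symbols matched.

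Replicate numbers pair the libraries: deviations from group means correlated at 0.562 to 0.850 in 15 same-numbered pairs and at -0.789 to 0.447 in 30 others. The named genes are the 6, the 3 nearest genes on each side, the 5 with the highest Pearson correlation of log2 CPM to each over the 11 libraries, and list genes called in a test; Mid1 and the other genes within 1 Mb were named after their values were seen. Members and lists were chosen with earlier results of these data known. Alternatives were DESeq2, filters, prior count, thinning, doublet removal, the block and each library left out. Perivascular macrophages and vascular smooth muscle had too few nuclei and were left out.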

Additional observations from a re-analysis of the deposited data

How the results depend on the processing

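Of 157 values of the comparisons recomputed under alternatives, 139 stayed within 1.5 times the reported count and 18 moved. DESeq2 called 2 genes among dosing groups, 2 between Malat1 ASO and ATV:BACE1 and 1 between OTV:Malat1 and ATV:BACE1, where edgeR called 0. With the replicate block, Malat1 ASO against ATV:BACE1 called 4, and the block called 0 in the other group comparisons. By replicate number, limma's 8 calls for astrocytes minus neurons became 5 with a prior count of 0.5, 2 without the filter and 2 to 6 with 1 library left out, and the 4 calls for oligodendrocytes minus neurons became 2 with that prior count, 24 without called doublets and 3 to 4 with 1 library left out. Pairs of gene and class that held the neuronal ratio were 20 to 23. Among 1163 values of single genes 1114 kept their call and direction or stayed within their counting interval or the usual spread, 40 moved by more without turning, 4 gained a call and 5 turned. The 5 were, as log2 ratios of the highest to the lowest library, Ide in oligodendrocytes (-0.13) and Gm47423 in Glia (-0.10) after thinning, Ide in leptomeningeal cells (-0.21) and oligodendrocytes (-0.11) without nonTV:Malat1 replicate 5, and Evc2 in leptomeningeal cells (-0.025) without Malat1 ASO replicate 5. With each library left out in turn these last 3 ranged from -0.21 to 2.68, -0.11 to 0.83 and -0.025 to 3.17. The highest and lowest library were named anew in each alternative. Without nonTV:Malat1 replicate 5 the Ide values therefore compare other libraries, hold no step and do not show it reversed. The Evc2 value without Malat1 ASO replicate 5 likewise uses another low library. Leaving out OTV:Malat1 replicate 5 or nonTV:Malat1 replicate 4 brought edgeR's adjusted p for replicate number to 0.0362 for Ide and 0.0436 for Gm47423, from 0.0927 and 0.187. Without nonTV:Malat1 replicate 5 the SD of log2 CPM was 0.09 for Ide and 0.25 for Evc2, against 0.36 and 0.65, and without ATV:BACE1 replicate 4 it was 0.78 for Gm47283, against 1.23. Depth limits the microglia, pericytes and vascular endothelium, where a step rests on 0 to 7 UMIs in a low library.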
